A study of Rattus norvegicus with 96 samples.

Results

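Sgcb encodes beta-sarcoglycan, a membrane protein of the sarcoglycan-dystroglycan complex, and it was described here with its complex partners Sgcd, Sgce, Dag1 and Dmd in the central nucleus of the amygdala of rats bred for high or low alcohol preference. Members were all probe sets annotated to 1 of these symbols alone. The annotation gave 9 such probe sets among the 31042 on the array: 3 of Sgcb, 1 of Sgce, 4 of Dag1 and 1 of Dmd. No probe set carried the symbol Sgcd by itself, so 4 of the 5 genes could be described. Brightest and dimmer probe sets of a gene are named by the mean over all arrays of the series. Sgcb was chosen by its measured values: its brightest probe set was lower, and its 2 other probe sets higher, in HAD2 than in LAD2 rats. The partners were taken along as members of its complex. All values of the HAD2 and LAD2 comparison are therefore descriptions without a test, and lines were tested against each other in the other pairs only.

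The study measured RNA of 96 animals on 1 array each, from 5 pairs of lines, each pair a line selected for preference and a line selected against it. Lines named HAD1 (9 arrays), HAD2 (10), P (10), AA (10) and sP (8) were bred for preference, and their counterparts were LAD1 (10), LAD2 (10), NP (10), ANA (10) and sNP (9). The labels name line, preference and brain region for each animal, with no age, alcohol exposure or treatment. Each line is a single breeding population, so animals of a line share descent, and the p-values measure the spread between animals of these lines.

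The complex spans the cell membrane. Dystroglycan, the product of Dag1, is cut into an outer alpha subunit that binds laminin, agrin, perlecan and neurexins through its sugar chains, and a beta subunit that crosses the membrane. Dystrophin, the product of Dmd, ties beta-dystroglycan to actin inside the cell, and the sarcoglycans with sarcospan stabilise this assembly at its side. In muscle the sarcoglycan core holds beta- and delta-sarcoglycan, and loss of SGCB in humans causes a limb-girdle muscular dystrophy. In brain the complex is known from astrocyte endfeet at blood vessels, from vascular smooth muscle and from inhibitory synapses, and epsilon-sarcoglycan, the product of Sgce, is expressed in neurons and is the gene of human myoclonus-dystonia.

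The sarcoglycan genes among the members, Sgcb and Sgce, have promoters rich in the dinucleotide CG, which are shown as background. Their relation to the line patterns of the probe sets was not tested. The windows run from 250 bases before to 50 after the start in RefSeq's GRCr8 annotation, on the coding strand, 5′ to 3′, with each CG in capitals; CG reads the same on both strands. The Sgcb window lies at chr14:34917413-34917712 on the plus strand and the Sgce window at chr4:33808739-33809038 on the minus strand.
Sgcb: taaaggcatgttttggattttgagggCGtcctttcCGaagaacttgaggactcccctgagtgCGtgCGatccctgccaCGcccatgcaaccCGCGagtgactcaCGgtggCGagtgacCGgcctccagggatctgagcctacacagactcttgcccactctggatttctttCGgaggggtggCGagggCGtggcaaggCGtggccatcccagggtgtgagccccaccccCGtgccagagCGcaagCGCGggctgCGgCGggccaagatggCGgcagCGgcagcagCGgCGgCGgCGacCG
Sgce: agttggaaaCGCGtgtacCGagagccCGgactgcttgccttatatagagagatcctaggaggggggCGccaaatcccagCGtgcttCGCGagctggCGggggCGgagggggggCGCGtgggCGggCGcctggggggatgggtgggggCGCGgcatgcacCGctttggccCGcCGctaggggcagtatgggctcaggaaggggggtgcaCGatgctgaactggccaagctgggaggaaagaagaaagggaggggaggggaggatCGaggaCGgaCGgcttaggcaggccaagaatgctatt
The Sgcb window held 27 CG and was 66.0% G or C, and 13.9% of 33469 promoter windows held as many CG or more. The Sgce window held 23 CG, as many or more than which were found in 19.5% of windows, against a median of 7 over all windows. The Sgce window shared 263 bases with that of its neighbour Peg10, which is read from the other strand; both are known as imprinted genes.

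Central amygdala identity, RNA quality and array labels bear on all values below. Of 14 marker genes of central amygdala neurons 12 were measured, and 11 of them had a mean above 7.89, the median of all probe set means on the log2 scale; Calcrl, at 5.81, did not. The log2 ratio of the 3' to the 5' probe set of GAPDH, which grows as RNA breaks down or copies shorten, averaged 3.84 in HAD1, 4.09 in LAD1, 3.43 in HAD2 and 3.33 in LAD2, against 0.20 to 0.43 in the other 6 lines. Levels were therefore compared within pairs. In 4 pairs, 15 arrays lay nearer to the opposite line of their pair in a score over line-separating probe sets made without the array scored: HAD1 28, LAD1 37, P 1, P 9, NP 1, NP 9, AA 15, AA 17, AA 19, ANA 16, ANA 18, sP 2, sP 9, sNP 8 and sNP 9. The same 15 were found with chromosome 14, which carries Sgcb, left out of the score, and 0 of 20 HAD2 and LAD2 arrays were among them. The arrays sP 2 and sNP 2 differed with an SD of 0.09 log2 units over all probe sets, against 0.16 for the next closest of 136 array pairs in these lines. LAD1 36 is LAD1 in its title and HAD1 in its source name, and was kept as LAD1.

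The brightest Sgcb probe set, 1374796_at, was the one that set HAD2 apart. Its log2 value had a lowest, median and highest value of 7.22, 7.53 and 7.93 in the 10 HAD2 rats, against 10.28, 11.07 and 11.57 in the 10 LAD2 rats. The lines did not overlap. HAD2 rats averaged 7.56 ± 0.24, against 10.95 ± 0.45 for LAD2 rats (SD, n = 10 each), a difference of -3.40 ± 0.15 log2 units (SE), or 10.5-fold lower in HAD2. In this pair 0.86% of all probe sets had lines that did not overlap, and 4.09% passed limma's test at an adjusted p under 0.05. Leaving out 1 array at a time kept the difference between -3.47 and -3.33.

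The same probe set took few intermediate values over the whole series. No array lay between 7.93 and 9.55, a gap of 1.62 log2 units, with 23 arrays below it and 73 above. The 23 low arrays were all 10 HAD2, 4 of 9 HAD1 and 9 of 10 LAD1 arrays. The arrays of the 7 other lines were all above the gap. None of the 8 other member probe sets had a gap over 0.34 across the 96 arrays.

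**Figure D1:**
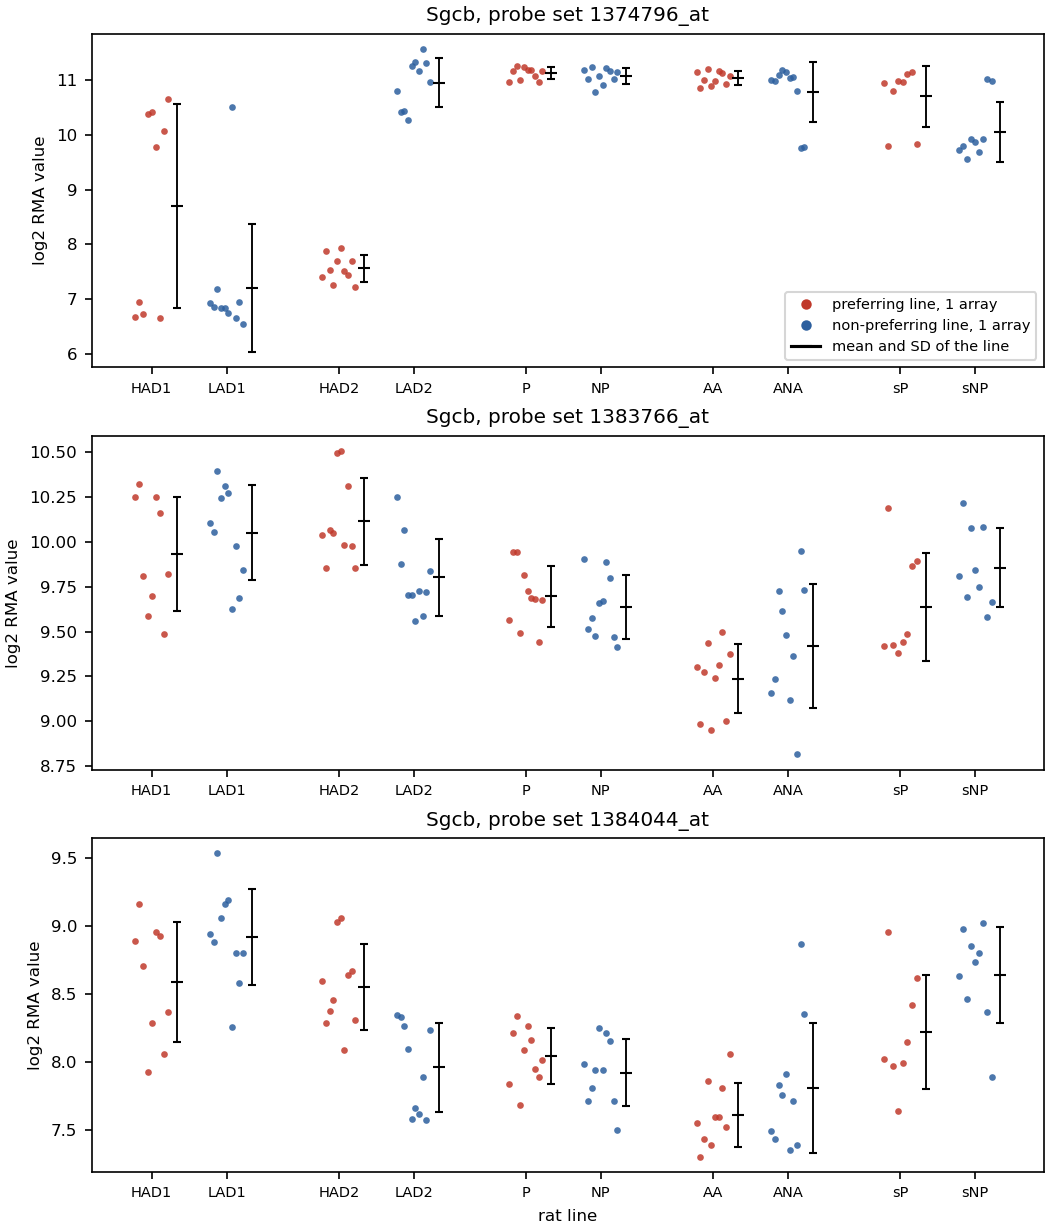
Log2 RMA values (vertical axis) of the 3 Sgcb probe sets in each of the 96 arrays, by line (horizontal axis), with preferring lines in red and non-preferring lines in blue; each point is an array and the bar gives the line's mean and SD. In the top panel the 10 HAD2 arrays lie at 7.22 to 7.93, HAD1 and LAD1 each hold low and high arrays, and sP, sNP and ANA each hold a second level near 9.8.

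HAD1 and LAD1 rats did not separate cleanly at this probe set, because both lines held both levels. In HAD1, arrays 24, 25, 26, 29 and 30 read 10.39, 10.41, 9.77, 10.08 and 10.66, while arrays 21, 22, 23 and 28 read 6.68, 6.94, 6.72 and 6.66. In LAD1, array 37 read 10.50 and the 9 others lay between 6.54 and 7.19. The high LAD1 array and the low HAD1 array 28 were the pair's 2 arrays on the opposite line's side of the score, whereas HAD1 21, 22 and 23 were low and lay on the side of HAD1.

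For 1374796_at the 9 HAD1 arrays averaged 8.70 ± 1.87, against 7.20 ± 1.17 for the 10 LAD1 arrays (SD). The difference of 1.50 ± 0.62 log2 units (SE) did not pass (limma adjusted p = 0.343). It passed in 1 fit of all 10 groups, which share 1 estimate of the spread (limma adjusted p = 0.00383). The other lines in that fit, among them HAD2 and LAD2, which chose Sgcb, had SDs of 0.11 to 0.55. The shared estimate is thus below the spread of HAD1 and LAD1, and this p is too small for the pair. Without HAD1 28 and LAD1 37 the probe set was 4.35-fold higher in HAD1 and passed (limma adjusted p = 0.0287); leaving out arrays that resemble the opposite line widens such differences by construction. The sign was thus opposite to that in HAD2, where the preferring line was the low one.

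In sP and sNP rats the probe set again had a pair of levels, closer together and both high. In sP, arrays 2 and 9 read 9.80 and 9.83, and the 6 others lay between 10.81 and 11.16. In sNP, arrays 8 and 9 read 11.02 and 10.98, and the 7 others lay between 9.55 and 9.92. The 4 exceptions, sP 2, sP 9, sNP 8 and sNP 9, were exactly the arrays on the opposite line's side of the score.

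As labelled, 1374796_at averaged 10.70 ± 0.55 in sP (SD, n = 8) and 10.05 ± 0.55 in sNP (n = 9). That difference of 0.65 ± 0.24 log2 units (SE) did not pass (limma adjusted p = 1). Without the 4 arrays the lines no longer overlapped: the 6 sP arrays lay at 10.81 or above and the 7 sNP arrays at 9.92 or below. The probe set was then 2.32-fold higher in sP, a difference that passed (limma adjusted p = 2.32e-08). Since these arrays were chosen for resembling the opposite line, both values are given. Leaving out the nearly identical sP 2 and sNP 2 alone gave 0.75, which did not pass (limma adjusted p = 0.771).

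AA and ANA rats differed in 2 arrays, and P and NP rats in none. In ANA, arrays 18 and 20 read 9.75 and 9.77, and the 8 others lay between 10.80 and 11.19, while all 10 AA arrays lay between 10.85 and 11.20. The difference between AA and ANA was 0.26 ± 0.16 log2 units (limma adjusted p = 0.983), and it was 0.14 without ANA 18 and 0.14 without ANA 20. All P arrays lay between 10.96 and 11.26 and all NP arrays between 10.78 and 11.23, a difference of 0.05 ± 0.06 (limma adjusted p = 1).

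Ordered by mean log2 value from low to high, the lines ran LAD1, HAD2, HAD1, sNP, sP, ANA, LAD2, AA, NP and P. The means were 7.20 ± 1.17, 7.56 ± 0.24, 8.70 ± 1.87, 10.05 ± 0.55, 10.70 ± 0.55, 10.78 ± 0.55, 10.95 ± 0.45, 11.04 ± 0.12, 11.08 ± 0.15 and 11.12 ± 0.11 in that order (SD). Neighbours in this order differed by less than the larger of their SDs, except sNP and sP. The order mixes pairs with different GAPDH ratios, and the part of RNA quality in it was not tested.

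The 2 other Sgcb probe sets did not follow the brightest one between lines. All HAD2 arrays read higher in both of them than in 1374796_at. In HAD2 rats 1383766_at had a lowest, median and highest log2 value of 9.85, 10.04 and 10.51, against 9.56, 9.72 and 10.25 in LAD2 rats. The lines overlapped, and the difference was 0.31 ± 0.10 (SE). For 1384044_at the values were 8.09, 8.53 and 9.06 in HAD2, against 7.58, 7.99 and 8.35 in LAD2. Of the 10 HAD2 arrays, 7 were above every LAD2 array, and the difference was 0.59 ± 0.13, or 1.51-fold higher in HAD2, where 1374796_at was 10.5-fold lower.

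Opposed signs were also seen array by array in LAD1, ANA, sP and sNP, the lines with a few arrays at another level. P and NP held 1 level, and there the 3 probe sets differed little, by 0.05 ± 0.06, 0.06 ± 0.08 and 0.12 ± 0.10 (SE), so their shared sign carries no weight. LAD1 37, the array of LAD1 with the high 1374796_at value, was the lowest of its line in both other probe sets, at 9.62 and 8.25. ANA 18, with the lowest 1374796_at value of its line, was the highest of ANA in both, at 9.95 and 8.87. ANA 20, next to it in 1374796_at, was second highest in both, at 9.73 and 8.35. The high sNP arrays 8 and 9 were the lowest sNP arrays in both probe sets, at 9.58 and 9.67 in 1383766_at and at 8.37 and 7.89 in 1384044_at. In sP, arrays 2 and 9, low in 1374796_at, were the highest in both, at 10.19 and 9.89 in 1383766_at and at 8.95 and 8.62 in 1384044_at.

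The pattern was less complete in HAD1. HAD1 24, 25, 29 and 30 were high in 1374796_at and the 4 lowest of their line in 1384044_at, at 7.93, 8.29, 8.06 and 8.37. HAD1 26 was high in 1374796_at too, at 9.77, but read 10.25 in 1383766_at and 8.96 in 1384044_at, among the upper values of HAD1 in both. In 1383766_at, HAD1 23 of the low level read 9.81, just below HAD1 30 of the high level at 9.82.

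**Figure D2:**
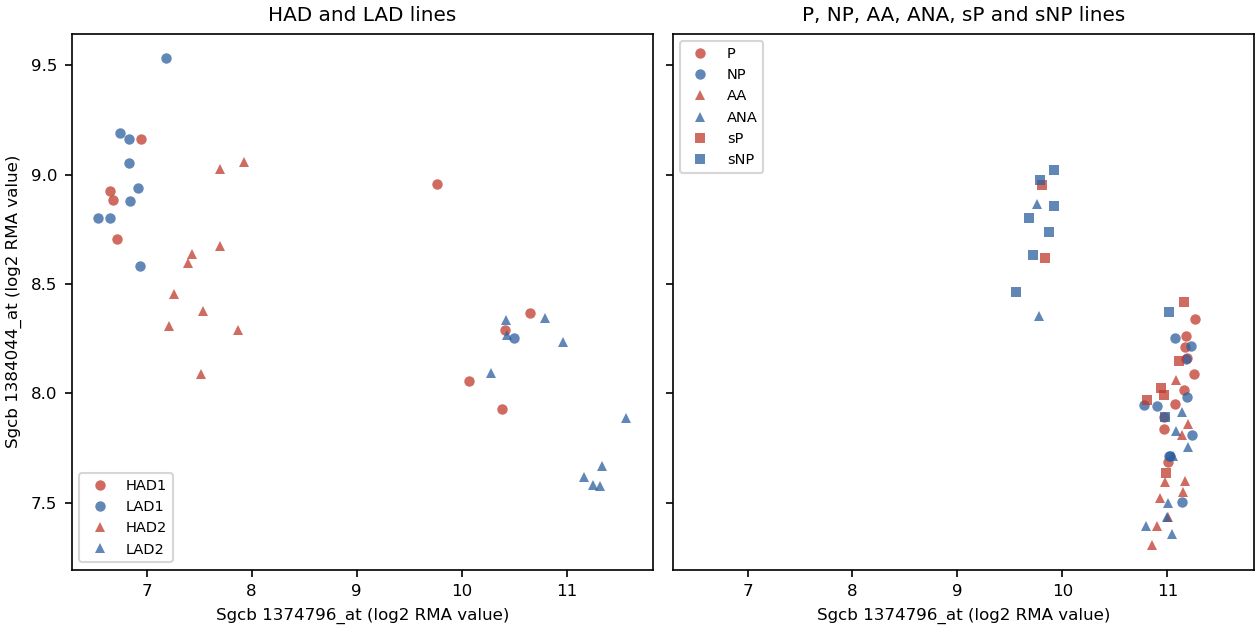
The log2 RMA value of Sgcb 1384044_at (vertical axis) against that of 1374796_at (horizontal axis), 1 point per array, with the HAD and LAD lines on the left and the 6 other lines on the right; preferring lines are red and non-preferring lines blue. In HAD1 with LAD1, AA with ANA and sP with sNP, arrays at the lower 1374796_at level of their pair lie higher in 1384044_at, except that HAD1 26, at 9.77 and 8.96, lies among them; HAD2 and LAD2 overlap in 1384044_at, and P and NP hold 1 level.

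As labelled, no member probe set passed in the pairs that had no part in choosing Sgcb, and none had lines that did not overlap there. Lines without overlap were found for 0.0193% of all probe sets in HAD1 and LAD1, for 0.00966% in sP and sNP, and for 0% in the P and NP pair and in the AA and ANA pair. limma called 0 of 9 in HAD1 and LAD1, where 0.963% of all probe sets were called, and 0 of 9 in each of the 3 pairs P with NP, AA with ANA and sP with sNP, where 0% were called. At an unadjusted p under 0.05 the counts of members were 1, 0, 0 and 2 of 9, against 3426, 1523, 1528 and 1341 of the 31042 probe sets in the same order of pairs. These were 1374796_at in HAD1 and LAD1, and 1374796_at with 1384044_at in sP and sNP. The differences of 1383766_at were -0.12 ± 0.12 in HAD1 minus LAD1, 0.06 ± 0.08 in P minus NP, -0.18 ± 0.12 in AA minus ANA and -0.22 ± 0.12 in sP minus sNP. For 1384044_at they were -0.33 ± 0.16, 0.12 ± 0.10, -0.20 ± 0.16 and -0.42 ± 0.17 in the same order.

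Without the 15 arrays, limma called 1 of 9 member probe sets in HAD1 and LAD1, against 2.56% of all, and 3 of 9 in sP and sNP, against 1.75%. It called 0 of 9 in P and NP, against 1.62%, and 0 of 9 in AA and ANA, against 1.8%. The 3 in sP and sNP were the 3 of Sgcb, with opposed signs: beside the rise of 1374796_at, 1384044_at fell by 0.75 ± 0.11 (limma adjusted p = 0.00115) and 1383766_at fell by 0.42 ± 0.10 (limma adjusted p = 0.0347).

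With equal weight for each of the 4 pairs, 1374796_at was higher in the preferring line by 0.61 ± 0.19 log2 units (SE), with a positive difference in 4 of 4 pairs. The mean did not pass (limma adjusted p = 0.18), and 0 of 9 members did, against 0.235% of all probe sets. Over the same pairs 1384044_at averaged -0.21 ± 0.08 (limma adjusted p = 0.414) and 1383766_at -0.12 ± 0.06 (limma adjusted p = 0.66). limma's F test for unequal differences among the 4 pairs called 0 of 9, against 409 of the 31042 probe sets, with an adjusted p of 0.511 for 1374796_at. Without the 15 arrays the mean called 2 of 9, against 2.56% of all: 1374796_at at 0.89 (limma adjusted p = 0.000398) and 1384044_at at -0.31 (limma adjusted p = 0.004). The F test then called the same 2, against 6.79% of all, with adjusted p of 0.00243 and 0.0106.

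Relations between the Sgcb probe sets were also read within lines whose arrays shared 1 level of 1374796_at, and those of 1374796_at differed between these lines. The 5 such lines, with no gap over 0.8 log2 units, were HAD2, LAD2, P, NP and AA, with 10 arrays each. Their largest gap was 0.36, in LAD2, with 3 arrays below it and 7 above. In P, NP and AA 9 relations were tested, with two-sided p-values from 100000 permutations adjusted over the 9; those in HAD2 and LAD2, which chose Sgcb, carry no test. The 2 dimmer probe sets moved together in P, NP and AA, with Pearson's r between 0.759 and 0.845 (adjusted permutation p between 0.00576 and 0.0168). Their Spearman's rho lay between 0.758 and 0.891 (adjusted permutation p between 0.00508 and 0.0196), and without the 2 arrays farthest from the median r lay between 0.62 and 0.818.

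In P rats 1374796_at also moved with both of them. Its r was 0.859 with 1383766_at and 0.856 with 1384044_at (adjusted permutation p = 0.00576 each), with rho of 0.867 and 0.855 (adjusted permutation p = 0.00508 each) and r of 0.792 and 0.861 without the 2 farthest arrays. In AA rats r was 0.894 with 1383766_at (adjusted permutation p = 0.00576) and 0.678 with 1384044_at (adjusted permutation p = 0.0385). The rho values in AA were 0.855 (adjusted permutation p = 0.00508) and 0.758 (adjusted permutation p = 0.0196), and r was 0.846 and 0.489 without the 2 farthest arrays. In NP r was 0.481 with 1383766_at and 0.117 with 1384044_at, with rho of 0.479 and 0.248, and neither passed (adjusted permutation p between 0.167 and 0.735).

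As descriptions, r between the 2 dimmer probe sets was 0.857 in the 10 HAD2 arrays and 0.723 in the 10 LAD2 arrays. Their rho was 0.709 and 0.697, and r fell to 0.527 and 0.615 without the 2 farthest arrays. With 1383766_at, 1374796_at had r of 0.385 in HAD2 and -0.557 in LAD2. The rho values were 0.2 and -0.661, and r was 0.477 and -0.856 without the 2 farthest arrays. With 1384044_at, 1374796_at had r of 0.449 in HAD2 and -0.742 in LAD2. The rho values were 0.37 and -0.648, and r was 0.499 and -0.741 without the 2 farthest arrays.

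Dystroglycan, the core of the complex, did not share the line differences of Sgcb. The brightest Dag1 probe set, 1371429_at, had a median of 11.18 and a highest log2 value of 11.39 in HAD2, against 11.21 and 11.33 in LAD2. The lines overlapped almost fully, with a difference of -0.02 ± 0.05 (SE). In the 4 other pairs its differences ran from -0.05 to 0.02. The 3 dimmer Dag1 probe sets, 1371430_at, 1392391_at and 1389105_at, differed by 0.10 ± 0.10, -0.09 ± 0.08 and 0.01 ± 0.04 in HAD2 minus LAD2. Over the 4 other pairs they ran from -0.13 to 0.09, from -0.06 to 0.12 and from -0.10 to 0.16, with limma adjusted p of 0.602 or more.

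Sgce, the other sarcoglycan among the members, was as even. Its probe set 1389971_at read 9.67, 9.81 and 9.94 as lowest, median and highest log2 value in HAD2, against 9.65, 9.78 and 9.95 in LAD2, a difference of 0.01 ± 0.05. In the other pairs Sgce differed by 0.06 ± 0.06 in HAD1 minus LAD1, 0.00 ± 0.06 in P minus NP, -0.03 ± 0.05 in AA minus ANA and 0.04 ± 0.05 in sP minus sNP. In the 9 HAD1 rats, whose Sgcb 1374796_at values ran from 6.66 to 10.66, Sgce stayed between 9.57 and 9.82.

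Dystrophin, the link to actin, was read by 1 dim probe set, 1369810_at. Dmd was at 6.29, 6.48 and 6.67 as lowest, median and highest log2 value in HAD2, against 6.19, 6.45 and 6.64 in LAD2, a difference of 0.06 ± 0.06. Its differences in the other pairs ran from -0.06 in AA minus ANA to 0.10 in P minus NP, with limma adjusted p of 0.881 or more. Its level was highest in the P and NP lines, at 7.15 ± 0.26 in P and 7.05 ± 0.21 in NP (SD, n = 10 each), against line means of 6.20 to 6.68 elsewhere; the part of RNA quality and of array batch in differences between pairs was not tested.

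**Figure D3:**
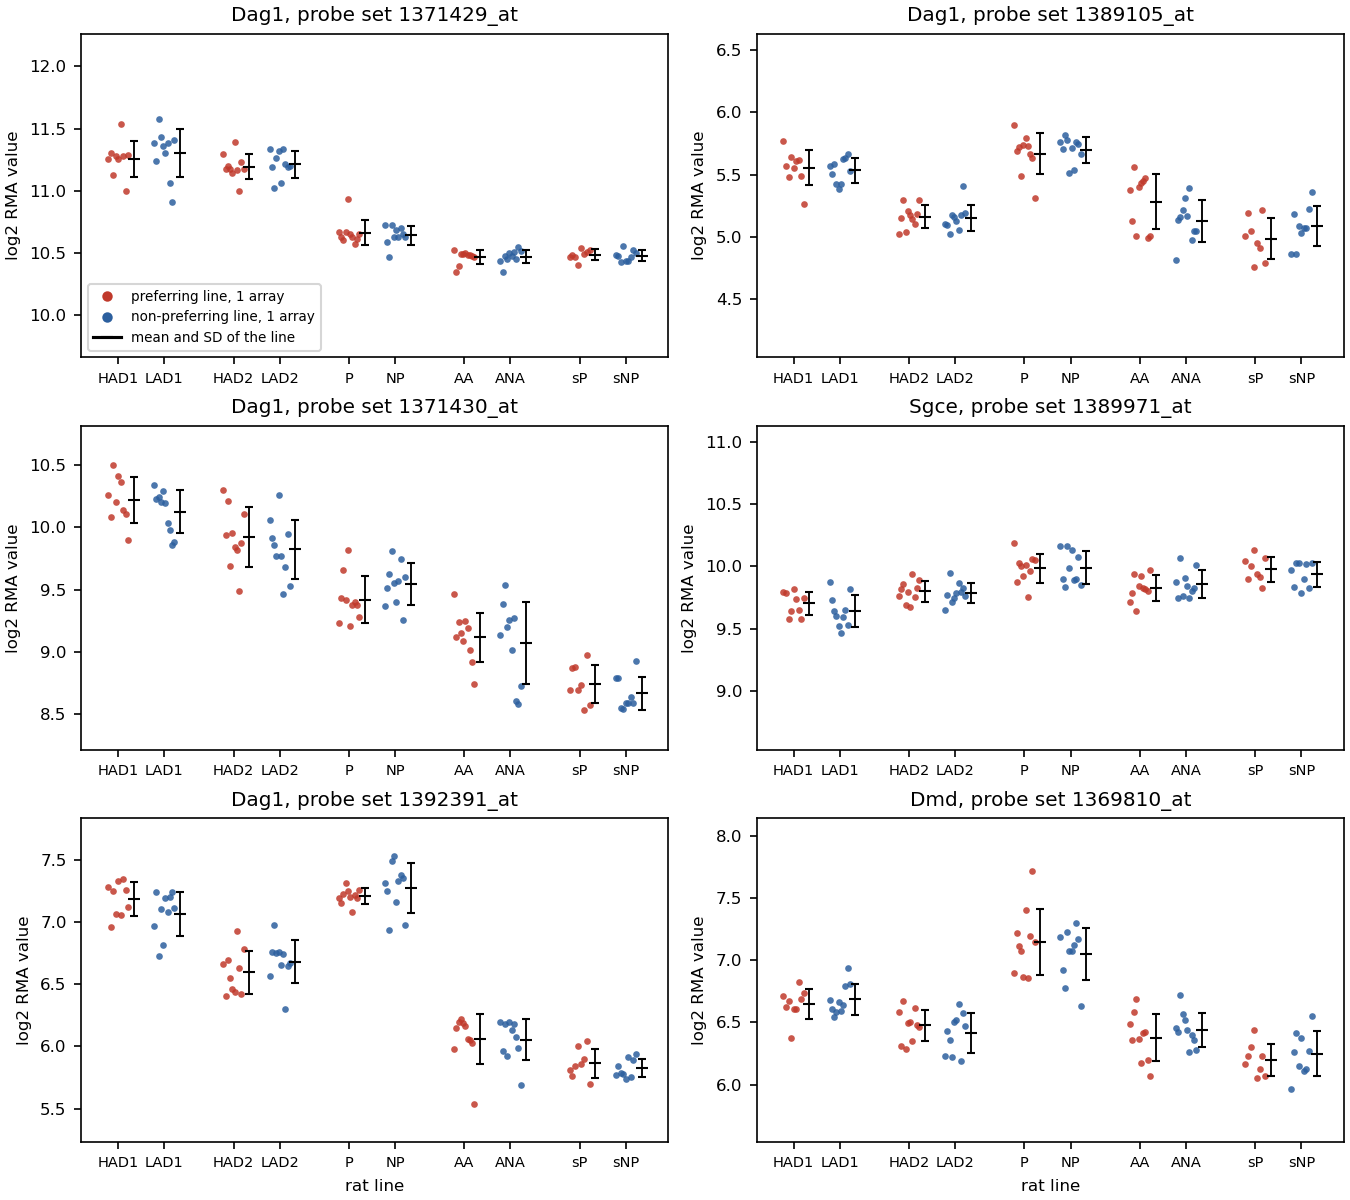
Log2 RMA values (vertical axis) of the 4 Dag1 probe sets, Sgce and Dmd in each array, by line (horizontal axis), each panel spanning the same number of log2 units; preferring lines are red, non-preferring lines blue, and bars give the line's mean and SD. Levels shift between pairs, while both lines of a pair overlap in every panel; Dmd is highest in P (7.15) and NP (7.05).

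**Figure D4:**
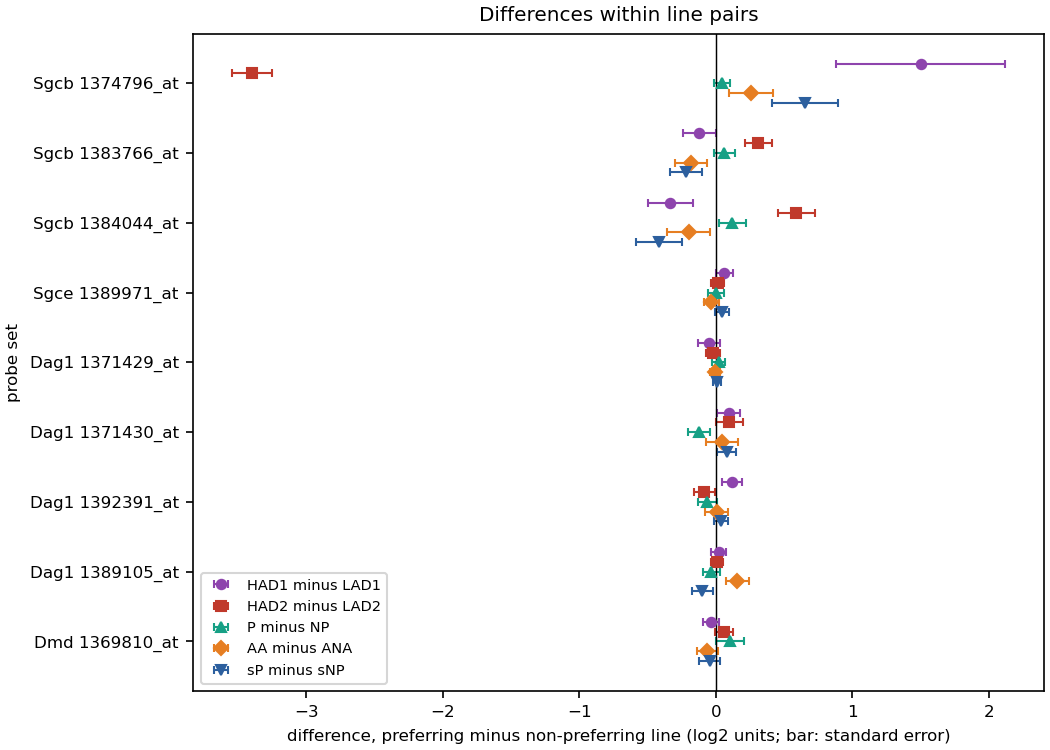
Difference between the preferring and the non-preferring line (horizontal axis, log2 units, with standard errors) for the 9 member probe sets (vertical axis), 1 symbol per line pair. Sgcb 1374796_at stands at -3.40 in HAD2 minus LAD2 and at 1.50 in HAD1 minus LAD1, while all differences of Sgce, Dag1 and Dmd lie between -0.13 and 0.16.

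The wider complex was read through a list of 47 other genes, of which 34 were measured, by 64 probe sets. limma called 0 of the 64 in each of the 4 pairs other than HAD2 and LAD2; at an unadjusted p under 0.05 there were 6 in HAD1 and LAD1, 3 in P and NP, 3 in AA and ANA, and 4 in sP and sNP. Over all probe sets an unadjusted p under 0.05 was found in 3426 of 31042 in HAD1 and LAD1, 4.91% in P and NP, 4.92% in AA and ANA and 4.32% in sP and sNP. By brightest probe set, the preferring line was higher in 21 of the 34 genes in HAD1, 20 in HAD2, 19 in P, 16 in AA and 14 in sP. The median differences were 0.01, 0.04, 0.00, -0.01 and -0.01 in that order, against -0.01, 0.00, 0.01, 0.00 and -0.01 over all genes.

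Among sarcoglycan partners, the widest difference was in sarcospan (Sspn), a small membrane protein of the sarcoglycan subcomplex. It lay in HAD1 minus LAD1, in a probe set that was dim in these lines. Alpha-sarcoglycan (Sgca) differed more than Sspn in HAD2 minus LAD2, AA minus ANA and sP minus sNP. Sspn 1380563_at averaged 6.99 ± 0.89 in HAD1 and 6.24 ± 0.33 in LAD1 (SD, n = 9 and 10), a difference of 0.75 ± 0.27 that did not pass (limma adjusted p = 0.231), and it held 1 high array, HAD1 30 at 9.25. The brightest Sspn probe set, 1388866_at, differed by 0.16 in HAD1 minus LAD1 and by 0.00 in HAD2 minus LAD2. Alpha-sarcoglycan, Sgca, known for striated muscle, differed by 0.32 ± 0.16 in HAD1 minus LAD1, 0.27 ± 0.09 in HAD2 minus LAD2, -0.09 ± 0.15 in P minus NP, -0.29 ± 0.16 in AA minus ANA and 0.12 ± 0.17 in sP minus sNP (SE), with limma adjusted p of 0.486 or more in the 4 pairs tested.

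Inside the membrane, alpha-dystrobrevin (Dtna), which binds dystrophin and syntrophins, also had probe sets of opposite sign. Dtna 1389737_at averaged 8.53 ± 0.38 in HAD2 and 8.96 ± 0.16 in LAD2, a difference of -0.43 ± 0.12 (SE). Dtna 1391687_at averaged 6.21 ± 0.30 in HAD2 and 5.85 ± 0.14 in LAD2, a difference of 0.35 ± 0.10 (SD, n = 10 each for the means). Its brightest probe set, 1380964_at, differed by 0.20. In HAD1 minus LAD1, Dtna 1389737_at differed by 0.43 ± 0.13, of the other sign than in HAD2 minus LAD2, and did not pass (limma adjusted p = 0.14). Utrophin (Utrn), the close relative of dystrophin, had its widest difference in AA minus ANA, -0.31 ± 0.15 (limma adjusted p = 0.983).

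Among the proteins that dystroglycan binds outside the cell, neurexin 3 (Nrxn3), a presynaptic adhesion protein, was read by a bright probe set, 1368261_at, and a dimmer one, 1381676_at. The bright one differed by -0.37 ± 0.11 in HAD1 minus LAD1 (limma adjusted p = 0.147), by 0.27 in HAD2 minus LAD2 and by 0.16 ± 0.07 in AA minus ANA (limma adjusted p = 0.983). The dimmer one differed by 0.07, 0.07 and -0.08 in the same order. Perlecan (Hspg2), a basement membrane proteoglycan, differed by -0.15 ± 0.05 in sP minus sNP (limma adjusted p = 1). The laminin alpha-2 gene Lama2 differed by -0.13 ± 0.13 in HAD1 minus LAD1, 0.19 ± 0.11 in HAD2 minus LAD2, 0.21 ± 0.35 in P minus NP, -0.15 ± 0.11 in AA minus ANA and -0.03 ± 0.11 in sP minus sNP (SE). The 12 measured genes that build the sugar chains of dystroglycan had differences between -0.18 and 0.24 over their 19 probe sets in all 5 pairs. At the astrocyte endfoot, where the complex anchors the water channel Aqp4, the largest Aqp4 difference was 0.26 ± 0.16 in P minus NP (limma adjusted p = 1).

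Chromosomal neighbours of Sgcb did not show differences of its size. The 5 nearest measured genes on each side in the RefSeq order of chromosome 14 were Usp46, Dancr, Rasl11b, Scfd2 and Fip1l1, and Dcun1d4, Cwh43, Ociad2, Ociad1 and Fryl, with 15 probe sets. Their differences ran from -0.30 to 0.17 in HAD2 minus LAD2 and from -0.20 to 0.24 in HAD1 minus LAD1. They ran from -0.18 to 0.13 in sP minus sNP, from -0.27 to 0.10 in AA minus ANA and from -0.15 to 0.22 in P minus NP. Usp46, a ubiquitin protease and the nearest neighbour on one side, had a probe set at -0.30 ± 0.08 in HAD2 minus LAD2 (1375194_at), while its 2 others were at 0.14 and 0.16.

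**Figure D5:**
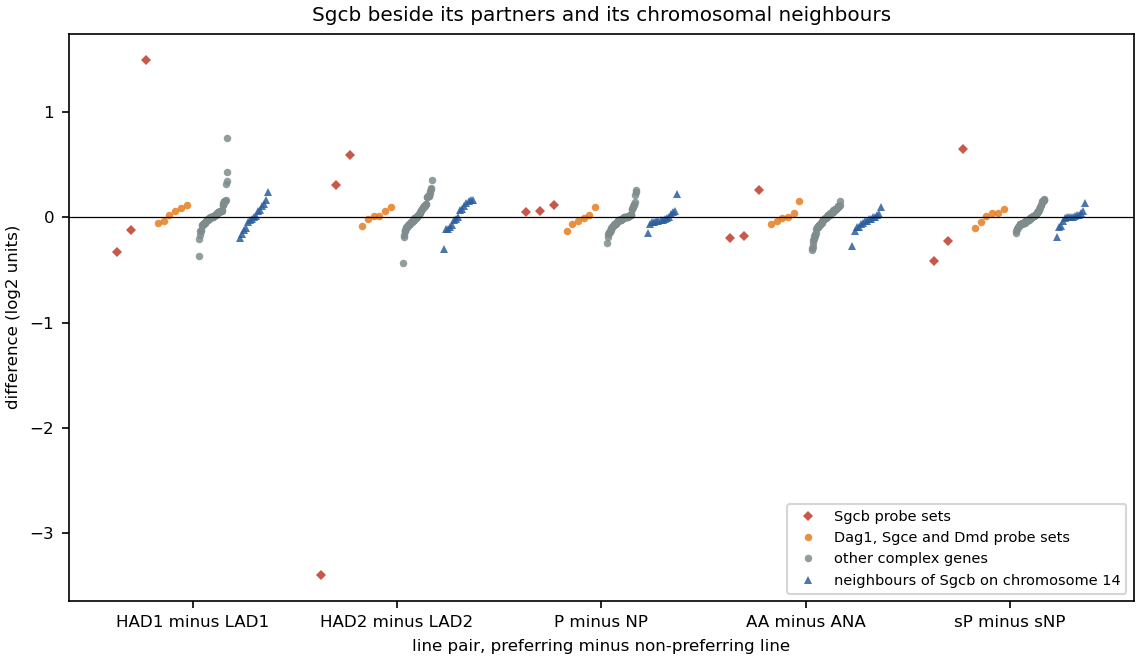
Differences in log2 units (vertical axis) within each line pair (horizontal axis) for the 3 Sgcb probe sets, the 6 probe sets of Dag1, Sgce and Dmd, the 64 probe sets of the wider complex list and the 15 probe sets of the neighbours of Sgcb. Only Sgcb 1374796_at lies beyond 1 log2 unit, at -3.40 in HAD2 minus LAD2 and 1.50 in HAD1 minus LAD1.

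The genes whose brightest probe set ran most like Sgcb 1374796_at across the 96 arrays were listed as a description. After the mean of each line pair was subtracted, the closest of 14216 genes were Amd1, an enzyme of polyamine synthesis, at r = 0.719, Il33, an alarmin cytokine, at 0.699, Klhl42 at 0.639, Elavl1, an RNA-binding protein, at 0.619 and Plekhd1 at 0.602. After the mean of each line was subtracted, they were Kif15, a mitotic kinesin, at 0.545, Poteml2 at 0.514, the transcription factor Tbx18 at 0.487, Amd1 at 0.482 and Gpatch11 at 0.474. Of these 9 genes 0 lie on chromosome 14, but the share of the 14216 genes on that chromosome was not counted. The values describe the arrays, share the levels and gaps given above, and carry no test.

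On the same measure the members stood apart from Sgcb 1374796_at. With pair means subtracted, r was -0.487 for 1383766_at and -0.631 for 1384044_at, and between -0.09 and 0.132 for the 6 probe sets of Sgce, Dag1 and Dmd. With line means subtracted it was -0.394 and -0.517 for the Sgcb probe sets, and between -0.084 and 0.09 for the others.

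Markers of vessels and of muscle, the other homes of sarcoglycans, were set beside these values. Of 6 markers of pericytes and smooth muscle 5 were higher in HAD2, with a median difference of 0.23 and a range of -0.09 to 0.44 over 9 probe sets. Sgcb 1374796_at was lower there, while Sgcb 1383766_at and 1384044_at were higher, by 0.31 and 0.59. Of 5 skeletal muscle markers 2 were higher in HAD2, with a median of -0.01. Ckm, at 5.23 in HAD2 and 5.24 in LAD2, and Myh4, at 4.65 in HAD2 and 4.62 in LAD2, were among the dim probe sets of the array. In HAD1 minus LAD1, 1374796_at was the higher on average, while 1383766_at and 1384044_at differed by -0.12 and -0.33. As labelled, no Sgcb probe set passed there. Of the pericyte and smooth muscle markers 0 of 6 were higher in HAD1. Tagln fell by 0.50 and Myh11 fell by 0.46 (limma adjusted p = 0.0362 and 0.0438). Over those markers the median difference was -0.11 in HAD1 minus LAD1. In sP 4 of the 6 were higher, with a median of 0.03, in P 1 of 6, with a median of -0.14, and in AA 5 of 6, with a median of 0.06. Microglial markers moved in the same pair: 0 of 6 were higher in HAD1, with a median of -0.39, and Cx3cr1 fell by 0.40 and C1qc fell by 0.48 (limma adjusted p = 0.0348 and 0.0266). In HAD2 2 of the 6 microglial markers were higher, with a median of -0.27. Of 5 endothelial markers 3 were higher in HAD2 and 1 in HAD1, with medians of 0.02 and -0.03. Of 6 astrocyte markers 4 were higher in HAD2 and 0 in HAD1, with medians of 0.04 and -0.09. In HAD1 minus LAD1 limma also called 1 of 10 skeletal muscle and 1 of 7 fibroblast probe sets lower. It called 1 of 7 oligodendrocyte probe sets higher there, against 0.963% of all probe sets called. The part of these cells in the Sgcb values was not tested; in tissue RNA fewer cells of a type and less RNA per cell cannot be told apart.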

How the data were processed

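The deposited table holds log2 values that the authors made with RMA, per the submitters' processing notes; the sources used here do not give its version or say whether all pairs were normalized in 1 run. RNA came from the central nucleus of the amygdala and was labelled by a 2-cycle amplification, per the labels' protocols. The 57 control probe sets of the manufacturer were left out. Gene symbols came from the platform annotation, where 20826 of 31042 probe sets had 1 symbol, 436 several and 9780 none listed; 20758 matched a RefSeq table of GRCr8, used for names and gene order only. Probe positions were not used, and no detection calls were made. Where lines differ in sequence at a probe, its value can change while the RNA does not. Precision is limited by the number of arrays.

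Each pair was fitted alone with limma 3.58.1 in R 4.3.3 (lmFit, eBayes with an intensity trend), two-sided, with Benjamini-Hochberg adjustment over 31042 probe sets at 0.05. A fit of 4 pairs, without HAD2 and LAD2, gave the mean difference and an F test of its variation. The fits were tested on simulated data. Animals carry the numbers of the sample titles. The score for arrays on the opposite line's side used the 100 probe sets that best separate the lines, on odd and even chromosomes separately.

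Members, the complex and marker lists and the score were chosen with earlier results of these data known. From the complex list, the rule names the probe sets with the lowest and the highest difference in each pair. Other listed genes with values (Sgca, Lama2, further probe sets of Sspn, Dtna and Nrxn3) and Usp46 were named with their values in view. The genes most like Sgcb are the 5 highest r on each scale. Alternatives were the arrays left out, 1 fit of all groups, quantile normalization, array weights, no trend, brighter probe sets, 1 probe set per gene, LAD1 36, sP 2 with sNP 2, the replicate block and 1 array at a time.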

Additional observations from a re-analysis of the deposited data

Results flagged for a closer look

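Of 110 combinations of a probe set and a line, 10 held a highest or lowest array far from the rest of its line by Dixon's test. Some combinations came from complex list probe sets named for the lowest or highest difference of a pair, which 1 far array can widen. The Sspn, Hspg2 and Dtna values below are of this kind. The rate of about 1 in 20 that chance gives does not apply to them, so the 10 were not set against it. Among the 10 was LAD1 37, at 10.50 in Sgcb 1374796_at with the next array at 7.19, as given above. Sarcospan (Sspn 1380563_at) was high in the same LAD1 37, at 7.02 with the next at 6.36, and in HAD1 30, at 9.25 with the next at 7.13. Both arrays were high in Sgcb 1374796_at, but so were HAD1 24, 25, 26 and 29, which lay at 7.13 or below in this Sspn probe set. For Dag1, P 5 was high in 1371429_at, at 10.94 with the next at 10.67, and NP 3 was low, at 10.47 with the next at 10.59. Dag1 1392391_at was low in AA 19, at 5.53 with the next at 5.98, and Dag1 1389105_at was high in LAD2 19, at 5.41 with the next at 5.19. Dmd 1369810_at was low in HAD1 24, at 6.38 with the next at 6.61. Perlecan (Hspg2 1371771_at) was low in sP 1, at 7.03 with the next at 7.18, and alpha-dystrobrevin (Dtna 1391687_at) was low in sP 9, at 7.54 with the next at 8.25.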

How the results depend on the processing

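Of the recomputed values of tested results, 1019 kept direction and side of the threshold, 10 gained a call and 31 changed sign. The 198 recomputed HAD2 minus LAD2 differences, which carry no test, moved by less than the spread between arrays, and 7 of them changed sign: Sgce with quantile normalization (-0.0161), and 6 with 1 array left out, where Sgce ran from -0.0019 to 0.0316, Dag1 1371429_at from -0.0405 to 0.0029 and Dag1 1389105_at from -0.0044 to 0.0398. The count of member probe sets called in HAD1 and LAD1 was 1 without the arrays on the opposite line's side and 1 in 1 fit of all 10 groups; without those arrays it was 3 in sP and sNP, 2 for the mean over 4 pairs and 2 for its variation. Leaving out 1 array at a time gave counts of 0 to 0 in each of the 4 pairs, and a HAD2 minus LAD2 difference of Sgcb 1374796_at between -3.47 and -3.33. The 31 sign changes lay in small uncalled differences: Dag1 1389105_at with LAD1 36 as HAD1 (-0.0049), Dag1 1371429_at in P minus NP with array weights (-0.0039) and in AA minus ANA with quantile normalization (0.0051), Dag1 1392391_at in AA minus ANA with quantile normalization (-0.0233), Sgce in AA minus ANA with array weights (0.0122) and Dmd in sP minus sNP without the arrays on the opposite line's side (0.0185). Leaving out 1 array at a time moved HAD1 minus LAD1 between -0.0061 and 0.0571 for Dag1 1389105_at. It moved P minus NP between -0.0239 and 0.0239 for Sgce 1389971_at, between -0.0099 and 0.0304 for Dag1 1371429_at and between -0.0589 and 0.0067 for Dag1 1389105_at. It moved AA minus ANA between -0.0191 and 0.008 for Dag1 1371429_at, between -0.035 and 0.0636 for Dag1 1392391_at and between -0.0082 and 0.0981 for Dag1 1371430_at. The cause was not tested. Restricting to the brighter 50% of probe sets kept 5 members in HAD1 and LAD1, without Sgcb 1374796_at. With the animal number as a replicate block, 0 members were called in P and NP and in sP and sNP, where Sgcb 1374796_at was at 0.77. The numbers did not pair the animals: same-numbered deviations correlated between -0.107 and 0.505 in P and NP, with 2 of 10 best with their own number, and between -0.23 and 0.735 in sP and sNP, with 1 of 8.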

Other observations

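A probe set with no gene symbol in the annotation, 1380409_at, followed Sgcb 1374796_at in HAD1 and LAD1; it was chosen after its values were seen. Its log2 value was 8.39, 7.88, 8.04, 8.26 and 8.48 in HAD1 24, 25, 26, 29 and 30, the arrays high in Sgcb, and 8.34 in LAD1 37. All other HAD1 and LAD1 arrays lay between 7.04 and 7.55. It did not separate HAD2, at 6.70 to 7.09, from LAD2, at 6.71 to 6.96, nor sP, at 5.86 ± 0.09, from sNP, at 5.84 ± 0.08 (SD, n = 8 and 9).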
